A study of Mus musculus with 10 samples.

Results

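The genes for the 8 subunits of the cytosolic chaperonin CCT (also called TRiC) were followed in the hippocampus of Dp1Yey mice, a mouse model of Down syndrome. The members were chosen by gene symbol (Cct8, Tcp1, Cct2, Cct3, Cct4, Cct5, Cct6a and Cct7), taking every probe set annotated to exactly 1 of these symbols. That gave 8 probe sets, 1 for each gene, out of 19938 genes that had such a probe set. Cct8 was the only member inside the duplicated interval of mouse chromosome 16 (Mmu16) and was present in 3 copies in Dp1Yey mice, while its 7 partners lay on other chromosomes and were present in 2 copies. The comparison asked whether the partners followed Cct8.

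Both hippocampi of each mouse, a male aged 16 weeks, were profiled together on 1 Affymetrix Mouse Gene 1.0 ST array. The groups were 5 Dp1Yey mice, carrying a segmental duplication of Mmu16 from Lipi to Zbtb21, and 5 control littermates without it. Both groups were on a C57BL/6 background, whose substrain the sample labels and the study's text give differently. The duplication was carried by every cell and raised the copy number of 143 measured genes together, so the dose of Cct8 cannot be told apart here from that of the other duplicated genes. In a bulk tissue sample, fewer cells of a type and less RNA for each cell cannot be told apart either. All values are log2 values after robust multi-array average (RMA), they are set side by side only for the same gene, and a gene was called a differentially expressed gene (DEG) at a limma p-value under 0.05 after Benjamini-Hochberg adjustment over all genes.

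CCT is a barrel of a pair of stacked rings, each built from the 8 related subunits in a fixed order, which takes up unfolded proteins and folds them in a cycle driven by ATP. Actins and tubulins are its best known clients, handed over in part by the co-chaperone prefoldin, and neurons draw on both for axons, dendrites and synapses. Because every complete ring needs 1 copy of each subunit, CCT is a textbook case for asking what an extra gene copy of a single subunit does to the others. In the ring, the theta subunit encoded by Cct8 sits between the eta subunit encoded by Cct7 and the zeta subunit encoded by Cct6a.

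The sequences in front of the genes are shown because they place Cct8 and its partners side by side at the point where transcription starts. They come from the RefSeq annotation of GRCm38.p6, which held a start-site window for 7 of the 8 genes and none for Cct4. Cct2 and Cct5 had 2 windows each, and the outermost start was used. The Cct8 window also holds the start of another gene, B130034C11Rik, on the plus strand 204 bases from the Cct8 start. For Cct8 the 250 bases before the start are printed (chr16:87495870-87496119, minus strand), and for the others the last 120, each read 5′ to 3′ in the direction of its gene and ending at the base before the start. They lie at chr5:129787236-129787355, plus strand (Cct6a), chr6:85451385-85451504, plus strand (Cct7), chr17:12916209-12916328, plus strand (Tcp1), chr10:117063853-117063972, minus strand (Cct2), chr15:31601847-31601966, minus strand (Cct5) and chr3:88297015-88297134, plus strand (Cct3). Capitals mark a GC box (GGGCGG on either strand), a CCAAT box (CCAAT on either strand) and, in Cct8, the letters CCGGAAGT of an ETS-type site.
Cct8: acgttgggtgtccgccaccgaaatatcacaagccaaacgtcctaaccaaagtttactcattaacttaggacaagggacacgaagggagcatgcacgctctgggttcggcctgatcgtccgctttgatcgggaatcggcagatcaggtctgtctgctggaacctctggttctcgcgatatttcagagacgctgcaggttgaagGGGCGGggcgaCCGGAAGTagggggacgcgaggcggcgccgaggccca
Cct6a: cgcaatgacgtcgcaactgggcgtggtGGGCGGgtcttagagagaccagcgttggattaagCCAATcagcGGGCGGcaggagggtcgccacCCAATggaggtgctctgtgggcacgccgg
Cct7: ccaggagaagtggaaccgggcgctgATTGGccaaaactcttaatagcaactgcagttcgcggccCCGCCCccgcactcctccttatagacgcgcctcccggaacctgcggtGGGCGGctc
Tcp1: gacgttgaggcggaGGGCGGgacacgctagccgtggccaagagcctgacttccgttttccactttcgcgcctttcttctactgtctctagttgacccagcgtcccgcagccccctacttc
Cct2: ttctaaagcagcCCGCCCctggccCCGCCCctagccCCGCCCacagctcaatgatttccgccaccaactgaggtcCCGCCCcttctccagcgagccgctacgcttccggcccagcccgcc
Cct5: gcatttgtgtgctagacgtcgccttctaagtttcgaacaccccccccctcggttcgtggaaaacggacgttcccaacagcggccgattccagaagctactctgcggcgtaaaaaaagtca
Cct3: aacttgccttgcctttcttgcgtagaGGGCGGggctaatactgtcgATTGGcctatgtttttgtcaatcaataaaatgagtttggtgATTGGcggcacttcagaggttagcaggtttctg

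The motifs were picked after these sequences had been seen, and each was searched on both strands of the 250 bases before the start. A GC box was found in all 7 subunit genes with a window, and in 32.7% of 32851 start-site windows of all genes. In Cct8 it lay 48 to 43 bases before the start, and in Cct5 it lay outside the printed stretch, 240 to 235 bases before the start. The letters CCGGAAGT, taken from the Cct8 sequence itself, followed 37 to 30 bases before the start and occurred in 2.88% of all windows. No partner window held all of them, but their core CGGAAG was found in Cct2 and Tcp1 as well as Cct8 (13.6% of all windows). A CCAAT box was found in Cct3, Cct6a, Cct7 and Tcp1 (33.8% of all windows). In Tcp1 it lay outside the printed stretch, 132 to 128 bases before the start. Neither the letters GAANNTTC, searched as a heat shock element (6.69% of all windows), nor the TATA box TATAAA (12.4%) was found in any of the 7. The opposite order with the same spacing, TTC before GAA, was not searched or counted over all windows. The printed Cct5 stretch holds it, so the absence of heat shock elements is not shown. All motifs named here are matches of letters and were not tested as sites of binding.

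All 6 hippocampal neuron markers were above background (a log2 value of 5.45, which 90 percent of 1015 olfactory receptor genes did not exceed on average), but so was every measured marker of the other cell types and tissues listed, the 5 of thalamus and habenula among them, so this check did not separate the hippocampus from tissue around it. The summed intensity of 5 genes of choroid plexus and ependyma, tissue next to the hippocampus, varied between mice. Its log2 ran from 10.19 to 12.18 in Dp1Yey mice and from 10.85 to 13.34 in controls. None of these 5 genes was a DEG, with 3 lower in Dp1Yey at an unadjusted p under 0.05 in limma. These were Ttr (log2 difference -1.57), Kl (-0.58) and Folr1 (-0.62), while Foxj1 and Ccdc153 stood at 0 and 0.01. Ttr varied most between mice (SD 1.2 in Dp1Yey mice and 1.5 in controls). Among the other markers, Tac2 of thalamus and habenula was a DEG (log2 difference 0.36). Groups also did not overlap, with Dp1Yey higher, for Wfs1 (0.42), Snap25 (0.05), Gfap (0.1) and Slco1a4 (0.34), none of them a DEG. Over all genes, 2.4% did not overlap in this direction. Array medians were 7.11 to 7.13 in Dp1Yey mice and 7.10 to 7.17 in controls, and interquartile ranges 3.30 to 3.41 and 3.21 to 3.38. Control mouse 2 had both the highest median and the lowest interquartile range of the 10 arrays. The part of these measures in the values below was not tested except where an alternative is named.

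Cct8 was higher in Dp1Yey hippocampi by 1.39-fold, and none of the 7 partners was a DEG in either direction. All 8 genes were above background. Over the table, 0.687% of the 19938 genes were DEGs higher in Dp1Yey and 0.11% were DEGs lower in Dp1Yey. Among the 96 interval genes above background, 61.5% were DEGs higher in Dp1Yey, while 0.5% of the genes outside the interval were DEGs in either direction. A call for Cct8 was thus common among duplicated genes above background, and 0 calls among 7 partners was close to the share outside the interval.

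Cct8 (Entrez 12469, Mmu16:87483325-87495869), which encodes the theta subunit, had log2 values of 10.82, 10.70, 10.74, 10.79 and 10.69 in Dp1Yey mice 1 to 5, against 10.26, 10.27, 10.30, 10.25 and 10.27 in control mice 1 to 5. The groups did not overlap: the lowest Dp1Yey mouse lay 0.39 above the highest control. Over all genes, 2.4% did not overlap with Dp1Yey higher. The means were 10.75 ± 0.0552 in Dp1Yey mice and 10.27 ± 0.0168 in controls (SD, n = 5 each), a log2 difference of 0.48 (SE 0.0332, 95% confidence interval 0.40 to 0.55), or 1.39-fold (1.32 to 1.46), with a limma adjusted p of 4.68e-05. The interval stayed below 1.5-fold, the ratio of 3 copies to 2, and the difference from log2 of 1.5 had an adjusted p of 0.0109 (limma's moderated error, adjusted over the 96 interval genes above background). Of those 96 genes, 67.7% were below 1.5-fold by the same test, and their median difference was 0.32 (1.25-fold). How fully array values follow a 1.5-fold dose was not tested.

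The 2 subunits next to theta in the ring are encoded by Cct6a and Cct7. Cct6a (Entrez 12466, Mmu5:129787356-129846443) had log2 values of 11.02, 10.98, 11, 11.04 and 11.02 in Dp1Yey mice, against 11.04, 11.12, 11.04, 11.04 and 11.11 in controls. The groups met at 11.04, with the other Dp1Yey mice below every control. The log2 difference was -0.06 (-0.13 to 0.01), or 0.961-fold, with an unadjusted p of 0.0832 and an adjusted p of 0.312 in limma, the smallest among the partners.

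Cct7 (Entrez 12468, Mmu6:85451505-85468477) had log2 values of 10.21, 10.19, 10.19, 10.33 and 10.09 in Dp1Yey mice, against 10.25, 10.26, 10.19, 10.28 and 10.22 in controls. Both the highest and the lowest value belonged to Dp1Yey mice (4 and 5), so the controls lay within the Dp1Yey range. Its log2 difference was -0.04 (-0.13 to 0.05), or 0.974-fold, with a limma adjusted p of 0.624.

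Tcp1, Cct4, Cct2 and Cct5 encode the alpha, delta, beta and epsilon subunits, which sit next to one another in the ring. For Tcp1 (Entrez 21454, Mmu17:12916329-12925067) the log2 values were 10.46, 10.43, 10.42, 10.48 and 10.37 in Dp1Yey mice, against 10.31, 10.43, 10.48, 10.43 and 10.47 in controls. The Dp1Yey values lay within the control range, and control mouse 1 was the lowest of all. Its log2 difference was 0.01 (-0.08 to 0.09), or 1.01-fold (adjusted p = 0.928 in limma).

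For Cct4 (Entrez 12464, Mmu11:22990593-23003336), whose mutation causes a sensory neuropathy in rats, the log2 values were 9.90, 9.83, 9.86, 9.95 and 9.82 in Dp1Yey mice, against 9.74, 9.68, 9.87, 9.94 and 9.92 in controls. Control mice 1 and 2 were below all Dp1Yey mice, while control mice 3, 4 and 5 lay among them. The log2 difference of 0.04 (-0.07 to 0.16), or 1.03-fold, was the highest among the partners and had the widest interval (adjusted p = 0.654 in limma). With control mice 1 and 2 left out together it was -0.0373.

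For Cct2 (Entrez 12461, Mmu10:117050997-117063852) the log2 values were 10.73, 10.70, 10.73, 10.70 and 10.69 in Dp1Yey mice, against 10.76, 10.71, 10.76, 10.73 and 10.69 in controls. The groups overlapped, with control mice 1 and 3 above every Dp1Yey mouse. The log2 difference was -0.02 (-0.08 to 0.04), or 0.985-fold (adjusted p = 0.69 in limma).

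For Cct5 (Entrez 12465, Mmu15:31590800-31601846), mutated in a human sensory neuropathy, the log2 values were 10.11, 10.13, 10.14, 10.19 and 10.02 in Dp1Yey mice, against 10.14, 10.26, 10.14, 10.15 and 10.23 in controls. The groups overlapped between 10.14 and 10.19, with Dp1Yey mouse 5 the lowest of the 10. Its log2 difference was the lowest of the partners at -0.06 (-0.15 to 0.02), or 0.957-fold (adjusted p = 0.371 in limma).

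Cct3 (Entrez 12462, Mmu3:88297135-88321766) encodes the gamma subunit, which closes the ring between zeta and alpha. Its log2 values were 9.94, 9.83, 9.85, 9.98 and 9.83 in Dp1Yey mice, against 9.86, 9.73, 9.92, 9.96 and 9.91 in controls. The groups overlapped, and control mouse 2 was the lowest of all. The log2 difference was 0.01 (-0.10 to 0.11), or 1.01-fold (adjusted p = 0.936 in limma).

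**Figure D1:**
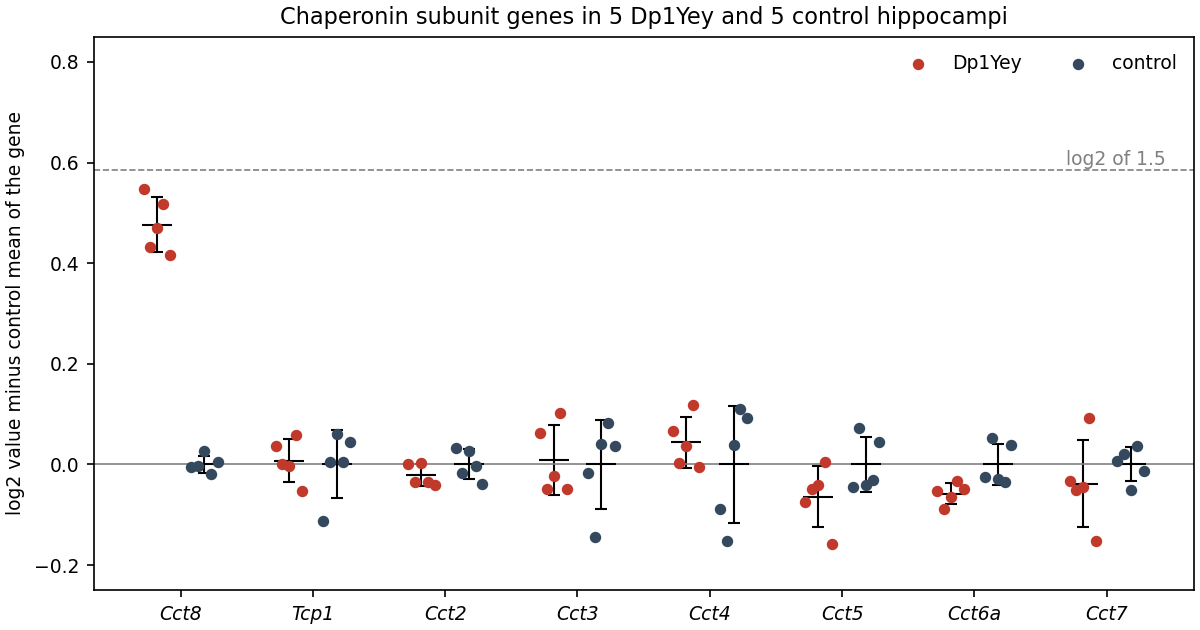
Log2 value minus the control mean of the gene (vertical axis) for each chaperonin subunit gene (horizontal axis) in 5 Dp1Yey and 5 control hippocampi; points are mice, bars the mean and SD, and the dashed line log2 of 1.5. All 5 Dp1Yey mice lie at 0.42 to 0.55 for Cct8, clear of the controls, while the groups overlap for the other 7 genes.

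As a group, the 7 partners had log2 differences from -0.06 to 0.04 with a median of -0.02, 3 above and 4 below 0, beside a median of -0.01 over all genes above background. None of the 7 had an unadjusted p under 0.05 in limma (19.5% of all genes had), none was called by a rank statistic rewritten after the study's FCROS method (3.46% of all genes were), and none had groups that did not overlap (4.86% of all genes had). The median size of their differences was 0.0381, against 0.0562 over all genes. Their median SE was also smaller, 0.0392 against 0.0465, so the sizes are not compared at like precision. The upper ends of the 7 intervals ran from 1.01 to 1.12-fold, below the lower end of 1.32-fold for Cct8, and the lower ends reached 0.902-fold.

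**Figure D2:**
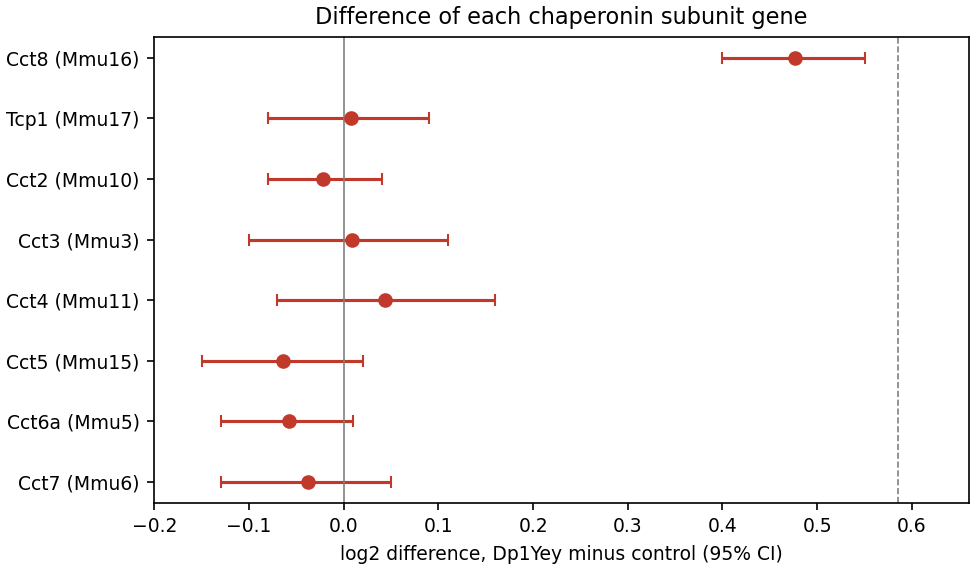
Log2 difference, Dp1Yey minus control (horizontal axis), of each chaperonin subunit gene with its chromosome; points are limma estimates over 5 Dp1Yey and 5 control mice, bars 95% confidence intervals, and the dashed line log2 of 1.5. Cct8 stands at 0.48 (0.40 to 0.55), and the intervals of the other 7 genes all include 0.

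The gap to Cct8 was then tested itself, by taking each mouse's log2 value of a gene minus its log2 value of Cct8. All 7 partners had a difference below that of Cct8, by -0.43 (-0.55 to -0.32) for Cct4 at one end and -0.54 (-0.64 to -0.44) for Cct5 at the other, with limma adjusted p from 8.97e-08 to 1.22e-06. For the ring neighbours the gaps were -0.53 (-0.62 to -0.44) for Cct6a and -0.51 (-0.61 to -0.42) for Cct7. The same test placed 98.9% of all 19937 other genes below Cct8, so this count describes Cct8 more than its partners. The measured spread of Cct8 enters every one of these differences.

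Within single mice, Cct8 moved up and the average partner did not. Relative to the control mean, Cct8 stood at 0.55, 0.43, 0.47, 0.52 and 0.42 in Dp1Yey mice 1 to 5, and at -0.01, 0.00, 0.03, -0.02 and 0.00 in control mice 1 to 5. The mean of the 7 partners stood at 0.00104, -0.0387, -0.0201, 0.0435 and -0.0728 in the same Dp1Yey mice, and at -0.036, -0.0235, 0.00672, 0.0239 and 0.029 in the controls. The partner means of both groups overlapped, averaging -0.0174 ± 0.0435 in Dp1Yey mice and 0 ± 0.0288 in controls (SD, n = 5 each).

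Cct8 minus the partner mean, both relative to the control means, was 0.55, 0.47, 0.49, 0.47 and 0.49 in the Dp1Yey mice and 0.03, 0.02, 0.02, -0.04 and -0.02 in the controls. This quantity measures how much further Cct8 moved than its partners, not which transcript was more abundant, and its control mean is 0 by construction. It averaged 0.494 ± 0.0305 in Dp1Yey mice and 0 ± 0.0325 in controls, so the spread between mice was alike in size while the levels were far apart. Among the Dp1Yey mice, mouse 5 was the lowest for 6 of the 8 subunits and mouse 4 the highest for 6. The order of the Dp1Yey mice was 1, 4, 3, 2, 5 from high to low for Cct8 and 4, 1, 3, 2, 5 for the partner mean, and that of the controls 3, 5, 2, 1, 4 and 5, 4, 3, 2, 1. With 5 mice in a group this relation was not tested.

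**Figure D3:**
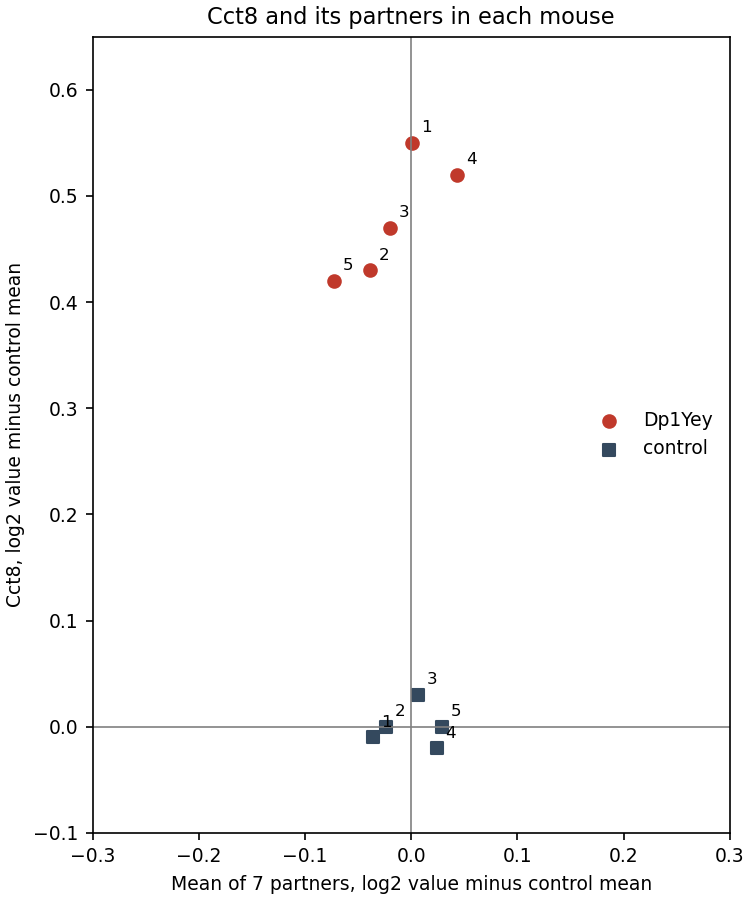
Cct8 (vertical axis) against the mean of its 7 partners (horizontal axis), both as log2 value minus the control mean, with 1 point for each of 5 Dp1Yey and 5 control mice numbered by replicate; both axes have the same scale. The groups separate along the Cct8 axis (0.42 to 0.55 in Dp1Yey mice, -0.02 to 0.03 in controls) and overlap along the partner axis (-0.0728 to 0.0435 and -0.036 to 0.029).

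Cct8 was also set beside the 5 measured genes on each side of it on Mmu16. Of these 10 genes, 7 were above background and 5 were DEGs higher in Dp1Yey, with none lower. The nearest measured gene on the lower-coordinate side, Usp16, a deubiquitinating enzyme, had a mean log2 value of 8.33 in Dp1Yey mice and 7.81 in controls, a difference of 0.52 or 1.44-fold (adjusted p = 0.00208 in limma). The annotated models of Usp16 and Cct8 overlap by 191 bases. Beyond it, Rwdd2b (0.52, adjusted p = 0.000166 in limma), Ltn1, a ubiquitin ligase of stalled ribosomes (0.44, adjusted p = 4.68e-05), and N6amt1, a methyltransferase (0.49, adjusted p = 0.000268), had similar log2 differences.

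On the other side the values were lower. The nearest measured gene there, Map3k7cl, had a mean log2 value of 6.38 in Dp1Yey mice and 6.33 in controls (difference 0.05, adjusted p = 0.518 in limma). Bach1, a haem-binding transcription factor, had a difference of 0.20 with groups that did not overlap (adjusted p = 0.0513), and Grik1, a kainate receptor subunit, was a DEG at 0.27 (adjusted p = 0.0238). The other 3 genes of the 10 (Adamts5, 2810407A14Rik and Cldn17) were not above background. By difference, Cct8 ranked 28 of the 96 interval genes above background.

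**Figure D4:**
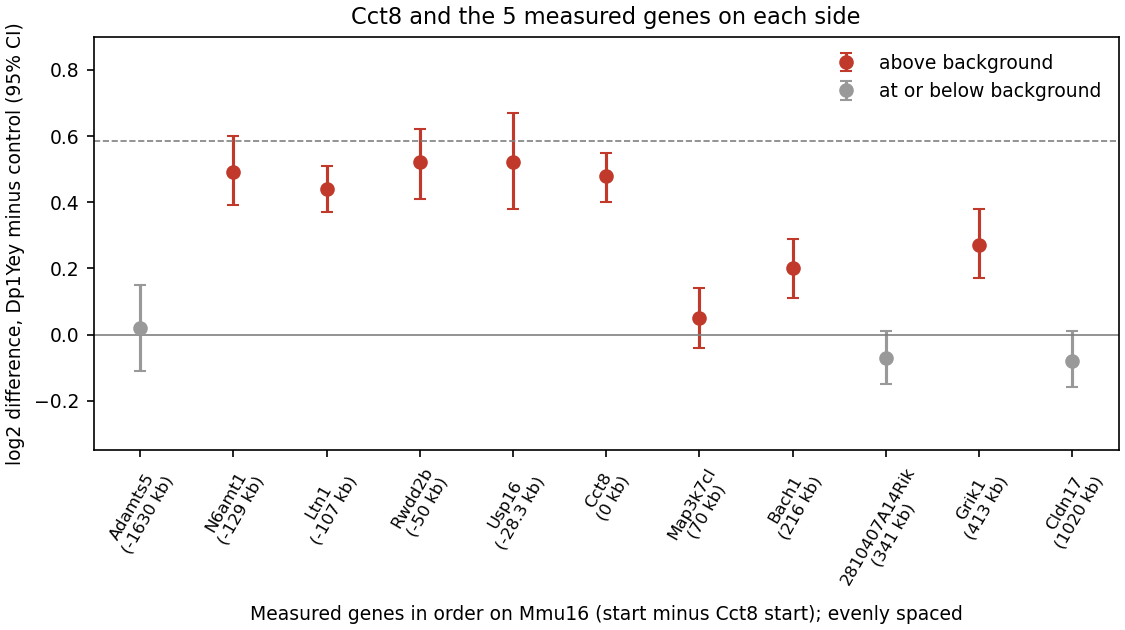
Log2 difference, Dp1Yey minus control, with 95% confidence intervals (vertical axis) for Cct8 and the 5 measured genes on each side of it, in chromosomal order with the distance of their starts (horizontal axis, evenly spaced); grey points are genes not above background, and the dashed line is log2 of 1.5. The 4 genes before Cct8 that were above background stand at 0.44 to 0.52, close to Cct8 at 0.48, and the genes after it at -0.08 to 0.27.

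The genes with the profile most like Cct8 across the 10 arrays, by root mean square distance between log2 values centred on their own mean, were Ltn1 (0.0279), Mrpl39 (0.0322), Ifngr2 (0.0467), Ets2 (0.0467) and Get1 (0.048). All 5 lie in the duplicated interval, as did 37 of the 50 closest genes, beside 143 of all 19938 genes. The distances of the partners were 0.238 for Tcp1, 0.252 for Cct2, 0.241 for Cct3, 0.229 for Cct4, 0.275 for Cct5, 0.27 for Cct6a and 0.262 for Cct7, beside a median of 0.257 over all genes. The partner nearest to Cct8, Cct4, was at rank 4700 of 19937. This measure uses the same arrays as the comparison of the groups and describes it in another form.

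Genes around CCT (co-chaperones, clients, paralogues and other chaperones, the mitochondrial ones among them) were followed in 8 lists. Of their 74 genes, 67 were measured and 63 were above background. None was a DEG in limma and none was called by the rank statistic, beside 0.797% of all genes that were DEGs in either direction and 3.46% that the rank statistic called. At an unadjusted p under 0.05, 6 were higher and 2 lower in Dp1Yey, against 1744 higher and 2152 lower among all 19938 genes. Their log2 differences ran from -0.18 to 0.26 with a median of 0.01, beside -0.015 over all genes, and 39 of the 67 were above 0, against 42.1% of all genes. Groups did not overlap for 1 gene in each of the prefoldin, actin and tubulin, and mitochondrial chaperonin lists and for none in the other lists. Over all genes, 4.86% had groups that did not overlap. None of these listed genes lies in the duplicated interval.

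All 6 prefoldin subunit genes, whose product delivers nascent actin and tubulin to CCT, had differences above 0 (0.02 to 0.20, median 0.10) without a DEG. Pfdn1 had log2 values of 8.49, 8.54, 8.49, 8.58 and 8.53 in Dp1Yey mice, against 8.34, 8.20, 8.48, 8.38 and 8.35 in controls. Its groups did not overlap, by a narrow margin over control mouse 3, and the difference was 0.18 (0.08 to 0.28), or 1.13-fold, with an adjusted p of 0.0958 in limma. Pfdn2 (0.14, adjusted p = 0.199) and Pfdn5 (0.20, adjusted p = 0.448) followed. Control mouse 2 was the lowest control for 4 of the 6 genes, and without it the median of the list was 0.05, the Pfdn2 difference 0.09 and the Pfdn5 difference 0.03. Without this mouse 5 of the 6 genes were still above 0, with Pfdn1 at 0.14.

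Of the 4 phosducin-like co-chaperones, which bind CCT and tune folding of its clients, 3 had differences above 0 (median 0.06), with none a DEG. Txndc9 had the largest, 0.26 (0.00 to 0.51, adjusted p = 0.256 in limma), with means of 10.08 ± 0.0408 in Dp1Yey mice and 9.82 ± 0.313 in controls (SD, n = 5 each). Pdcl3 (0.12, adjusted p = 0.302) and Pdcl, a chaperone of G protein beta subunits (-0.09, adjusted p = 0.351), differed in sign. Without control mouse 2 the differences were 0.12 for Txndc9, 0.06 for Pdcl3 and -0.04 for Pdcl, and the median of the list was 0.03.

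Among actins and tubulins, 19 of 23 genes were measured and 16 of them had differences above 0 (-0.07 to 0.19, median 0.05), with none a DEG. Tubb2a, a beta-tubulin of neurons, had log2 values of 11.25, 11.19, 11.20, 11.21 and 11.26 in Dp1Yey mice, against 11.09, 10.92, 11.12, 11.08 and 11.03 in controls. The groups did not overlap, as for 4.86% of all genes. The difference of 0.17 (0.09 to 0.26), or 1.13-fold, had an adjusted p of 0.067 in limma. Tubg2, a gamma-tubulin (0.11, adjusted p = 0.296), and Tuba4a (0.06, adjusted p = 0.305) came next by p. Control mouse 2 was the lowest control for 8 of the 19 genes, and without it Tubg2 stood at 0.06 and Tubb2a at 0.14. Without this mouse 16 of the 19 genes were still above 0, with a median of 0.04. Tubulin and actin genes are close copies, so their probe sets may share signal, and Actg1, Tuba1b, Tuba1c and Tubb4b had no probe set with a single symbol.

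The 6 tubulin folding cofactors, which take tubulin over from CCT and join it into dimers, had a median difference of 0.06, with 4 above 0 and none a DEG. Tbca stood at 0.17 (0.03 to 0.30, adjusted p = 0.18 in limma), Tbcb at 0.15 (adjusted p = 0.314) and Arl2, a small GTPase that regulates them, at 0.08 (adjusted p = 0.38). Control mouse 2 was the lowest control for 5 of the 6 genes, and without it Tbcb stood at 0.06. The list median was then 0.04, with 4 genes still above 0. The 13 other clients had a median of -0.01 and included Vhl, a tumour suppressor folded by CCT (0.15, adjusted p = 0.212), Hdac3, a histone deacetylase (0.10, adjusted p = 0.283), and Gnb3, a G protein beta subunit (-0.07, adjusted p = 0.378). Without control mouse 2, Vhl stood at 0.20, Hdac3 at 0.09 and Gnb3 at -0.09.

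Of 11 measured genes of the cytosolic heat shock network, 3 had differences above 0 (-0.18 to 0.05, median -0.03), with none a DEG. Hspa4l, a nucleotide exchange factor of Hsp70, stood at -0.13 (-0.23 to -0.03, adjusted p = 0.165 in limma), Hspb1, a small heat shock protein, at -0.18 (adjusted p = 0.617) and Dnaja1, an Hsp70 co-chaperone, at 0.05 (adjusted p = 0.663). In the mitochondrial chaperonin system, Hspa9, the mitochondrial Hsp70, averaged 10.88 ± 0.0191 in Dp1Yey mice and 10.99 ± 0.0565 in controls (SD, n = 5 each). Its groups did not overlap by a narrow margin, with the highest Dp1Yey mouse at 10.91 and the lowest control at 10.93. The difference was -0.11 (-0.18 to -0.03, adjusted p = 0.137 in limma), and -0.08 without control mouse 2. Hspd1, the subunit of the mitochondrial chaperonin itself, and Hspe1, its co-chaperonin, stood at -0.03 and 0.08, and at -0.06 and 0.02 without control mouse 2.

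The 5 paralogues and chaperonin-like proteins showed no gene with a difference above 0 (-0.07 to 0.00, median -0.04), and none was a DEG. They included Bbs10 (-0.07, adjusted p = 0.354 in limma) and Bbs12 (-0.03, adjusted p = 0.685), which work with CCT in assembling the ciliary BBSome, and the paralogue Cct8l1 (-0.05, adjusted p = 0.64). Cct8l1 and Cct6b, a paralogue known from testis, were not above background.

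**Figure D5:**
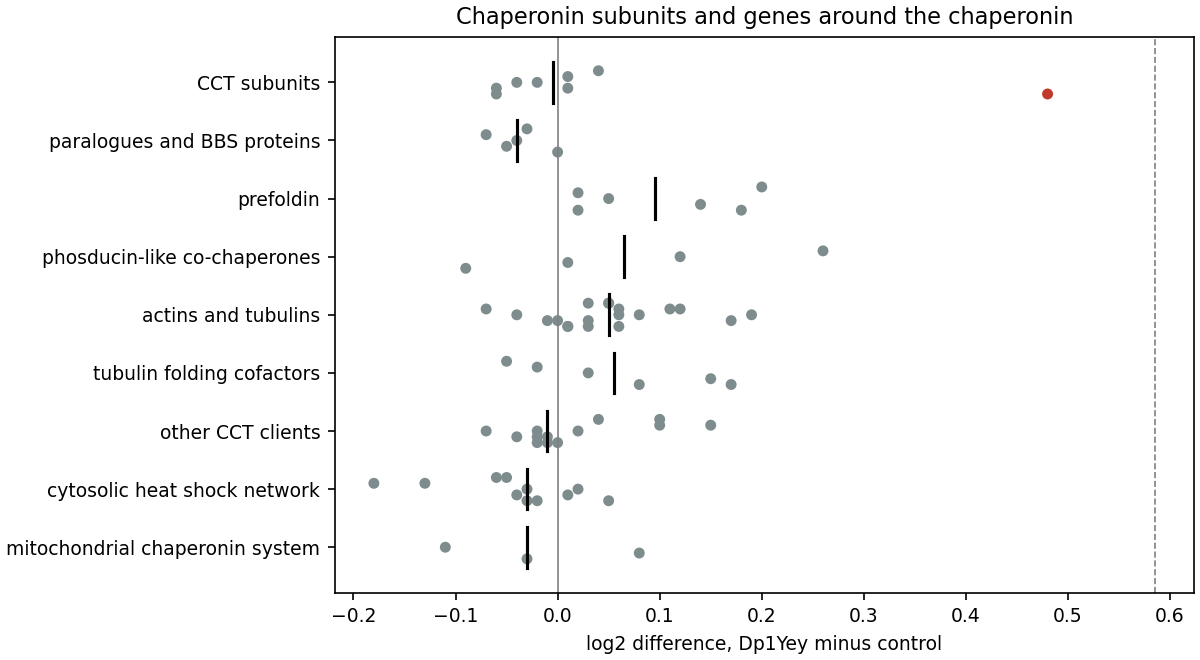
Log2 difference, Dp1Yey minus control (horizontal axis), of each measured gene in the chaperonin subunit list and the 8 lists of genes around CCT (vertical axis); each point is 1 gene. Cct8 at 0.48 stands apart, and the 67 genes of the other lists lie between -0.18 and 0.26.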

How the data were processed

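The authors deposited log2 values made by RMA (background correction, quantile normalisation and a summary to 1 value for each probe set). RMA, limma and mm10 are credited to the submitters' processing notes; the set of arrays normalised jointly was not given in the sources read. Of 35556 probe sets, 21789 carried 1 gene symbol in the platform annotation. Where a gene had several, the one of highest mean was kept, leaving 19938 genes, 19855 of them with coordinates in RefSeq GRCm38.p6. Groups were compared in R 4.3.3 by lmFit and eBayes of limma 3.58.1 (two-sided, no covariate), and the fitting code was tested on simulated data. The gap to Cct8 was fitted in the same way over the 19937 other genes. Array values have no depth, and precision is set by the number of arrays. Groups came from the sample labels, which name the mice as biological replicates; their replicate numbers did not pair the samples.

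The members and lists were chosen with earlier results of these data known. Named were all 8 members, up to 3 genes of smallest p from each list other than the marker lists, the nearest measured gene on each side of Cct8, and the 5 genes of most similar profile; single other genes (the remaining neighbours) were named after their values were seen. The marker lists covered hippocampal neurons, astrocytes, oligodendrocytes, microglia, endothelium, choroid plexus and ependyma, thalamus and habenula, and blood; all measured markers were above background, and 1, the thalamus and habenula gene Tac2, was a DEG (log2 difference 0.36). Alternatives changed the normalisation, the filter, the probe set rule, the variance model, array weights, a replicate block, the interquartile range as a covariate, the mice included and the test.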

Additional observations from a re-analysis of the deposited data

Results flagged for a closer look

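Of 68 groups of 5 mice examined, 4 held a mouse set apart from the others by Dixon's criterion, which marks about 1 in 20 groups by chance. Dp1Yey mouse 1 had the highest Cct8 minus partner mean, 0.55, against 0.47 to 0.49 in the other Dp1Yey mice. Control mouse 2 had a Pfdn5 log2 value of 8.93, against 9.63 to 9.91 in the other controls. Its Txndc9 value was 9.28, against 9.87 to 10.07 in the other controls. Its Tbcb value was 8.65, against 9.02 to 9.13 in the other controls. The array of control mouse 2 also had the highest median (7.17) and the lowest interquartile range (3.21) of all arrays, and a link to these values was not tested.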

How the results depend on the processing

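Cct8 was called higher in Dp1Yey in all 21 settings tried (log2 difference 0.453 to 0.491), as a DEG with limma and by its own rule with the rank statistic. It stayed below 1.5-fold in each setting that gave that test (limma adjusted p 0.0028 to 0.0323). In the same 21 settings no partner was called, and the mean partner difference ran from -0.0449 to -0.00354. All 7 partners stayed below Cct8 in the 20 settings that could give this test, which the rank statistic could not. The signs of the partner differences nearest 0 did change. Cct3 turned to -0.0161 with quantile normalisation, -0.0164 with array weights, -0.0531 with each array's interquartile range as covariate and -0.0448 without control replicates 1 and 2, and ran from -0.0274 to 0.0292 with single mice left out. Tcp1 turned to -0.0203, -0.000366, -0.0321 and -0.0284 in the same settings, and ran from -0.0207 to 0.023 with single mice left out. Cct4 turned to -0.0309 with the covariate and -0.0373 without control replicates 1 and 2. The cause was not tested.

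The number of DEGs over all genes moved most: 159 in the reported fit, 94 with the replicate block, 48 with the covariate, and 70 to 232 with single mice left out. The rank statistic, which has another threshold and whose calls are not DEGs in that sense, called 689 genes. Genes around CCT gave 1 DEG with an intensity trend (Tubb2a, adjusted p = 0.044 in limma, 0.044 to 0.472 over its settings) and 0 to 1 with single mice left out (Pfdn1 without control replicate 3). Mice with the same number correlated in their deviations at -0.33 to 0.22, over 0.1 for 1 of 5 numbers. With the replicate block Cct8 stood at 0.477, the mean partner difference at -0.0174, and no partner or gene around CCT was called.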
